A study of Mus musculus with 18 samples.

Results

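The 39 mouse Hox genes were followed across 2 white fat depots, the epididymal depot (eWAT, visceral) and the inguinal depot (iWAT, subcutaneous). Members were taken by symbol, as every gene named Hox with a cluster letter from a to d and a position number. All 39 were present among the 24091 gene symbols of the eWAT table and among the 51826 gene identifiers of the iWAT table. They lie in 4 clusters, at the coordinates of the GRCm38 build. The Hoxa cluster holds 11 members on the minus strand of chromosome 6 (52155367 to 52260880), and the Hoxb cluster 10 on the plus strand of chromosome 11 (96194361 to 96368253). The Hoxc cluster holds 9 on the plus strand of chromosome 15 (102921131 to 103036852), and the Hoxd cluster 9 on the plus strand of chromosome 2 (74668310 to 74765142).

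Hox genes encode homeodomain transcription factors that give cells their position along the head-to-tail axis of the embryo. Genes of a cluster are switched on in the order in which they lie on the chromosome, so that low position numbers mark anterior and high numbers posterior levels of the body, and adult mesenchymal cells keep much of this pattern. Fat depots form at different body levels, and their preadipocytes are known to carry depot-specific Hox profiles. Hox proteins bind DNA together with cofactors of the Pbx and Meis families, and Polycomb and Trithorax complexes hold Hox clusters in silent or active states.

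The study profiled 18 RNA-seq libraries of C57BL/6 mice in 6 groups of 3. Controls lived under a constant alternation of 12 h light and 12 h darkness. For the shiftwork groups the week was split into 4 days of that regime and 3 days with day and night exchanged, over 24 weeks. The groups were eWAT control and shiftwork at ZT3 and at ZT12 (zeitgeber time, counted from when the lights turn on), and iWAT control and shiftwork at ZT3. The labels do not say whether the libraries of a group come from separate animals, so p-values measure only the spread between these samples, which may be technical. Number codes of 4 of the 6 iWAT libraries (3 controls and shiftwork replicate 3) recur among the eWAT libraries labelled ZT12 of the same schedule. The labels do not say whether these share animals, or how the codes relate to the ZT3 label of iWAT, and this was not tested. All values are from whole tissue, in which fewer cells of a type and less RNA per cell cannot be told apart.

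Depth ran from 20352008 to 72276733 assigned reads in eWAT and from 28544338 to 55639501 in iWAT. The 8 adipocyte markers summed to between 10500 and 26423 CPM (read counts scaled to the assigned reads of the library) per eWAT library, and to between 12921 and 29109 CPM per iWAT library. Of the subcutaneous genes, Tbx15 stood at 15.6 to 92.3 CPM in iWAT and at most 0.244 CPM in eWAT. The visceral gene Wt1 stood at 5.14 to 41.8 CPM in eWAT and at most 0.167 CPM in iWAT. In eWAT, 3 libraries stood apart. In ZT3 control replicates 1 and 3, markers of vas deferens and epididymis summed to 12585 and 12067 CPM, against 2.13 to 142 CPM in the other eWAT libraries. In ZT3 shiftwork replicate 3, spermatid markers summed to 5493 CPM, against 0.658 to 72.7 CPM in the others. In iWAT, shiftwork replicate 1 held 45201 CPM of skeletal muscle markers, and control replicates 1 and 2 held 934 and 1645 CPM of B cell and lymph node markers. Several results that rest on the 3 eWAT libraries are given with and without them, and the other 9 are called the 9 eWAT libraries. Results for schedule in eWAT, for the interaction and for the members as a set are not given without all 3.

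The promoters of 4 consecutive Hoxa genes are shown because these neighbours differed from one another in where they were detected. They are Hoxa7 (detected in every library), Hoxa9 and Hoxa10 (present in iWAT and variable in eWAT) and Hoxa11 (near 0 outside the libraries with vas deferens transcripts). Each is the 250 bases before the gene's start on the minus strand, from RefSeq (GRCm38.p6), at chr6:52218574-52218823, chr6:52227371-52227620, chr6:52240855-52241104 and chr6:52245811-52246060. The RefSeq start of Hoxa7 lies 1817 bases inside the gene's extent in the deposited eWAT table, so its window is not upstream of that longer model, while the other 3 starts lie at the end of theirs. Capitals mark TTTATG, a core motif of the caudal (Cdx) factors.
Hoxa7: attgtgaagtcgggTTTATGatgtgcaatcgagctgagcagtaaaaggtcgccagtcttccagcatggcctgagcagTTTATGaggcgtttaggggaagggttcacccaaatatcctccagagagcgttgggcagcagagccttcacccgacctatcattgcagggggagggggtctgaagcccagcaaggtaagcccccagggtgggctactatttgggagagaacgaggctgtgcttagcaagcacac
Hoxa9: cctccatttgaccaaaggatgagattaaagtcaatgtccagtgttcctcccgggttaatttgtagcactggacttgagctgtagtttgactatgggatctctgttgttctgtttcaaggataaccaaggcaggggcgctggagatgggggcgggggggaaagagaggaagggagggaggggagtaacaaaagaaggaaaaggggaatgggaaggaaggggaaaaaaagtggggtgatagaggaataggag
Hoxa10: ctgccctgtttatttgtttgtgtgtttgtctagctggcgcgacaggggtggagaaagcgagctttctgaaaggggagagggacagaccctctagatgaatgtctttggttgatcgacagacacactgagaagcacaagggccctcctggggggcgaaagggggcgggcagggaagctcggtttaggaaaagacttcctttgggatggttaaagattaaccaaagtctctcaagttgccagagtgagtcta
Hoxa11: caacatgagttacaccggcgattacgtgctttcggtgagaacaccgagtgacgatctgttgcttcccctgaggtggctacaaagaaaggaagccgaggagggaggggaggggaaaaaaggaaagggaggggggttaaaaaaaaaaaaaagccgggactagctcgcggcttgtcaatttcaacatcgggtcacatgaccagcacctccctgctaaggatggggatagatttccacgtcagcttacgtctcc
On both strands, TTTATG was found 2 times in the Hoxa7 window and 0 times in the other 3. TGATTNAT, a composite motif of Hox and Pbx proteins, and TAATTA, a homeodomain core motif, were found in none of these 4 windows. With T at its N, TGATTNAT can share letters with TTTATG. Of all 32851 RefSeq windows of this length, 10.8% held TTTATG, 2.82% TGATTNAT and 4.84% TAATTA. Of the 24 windows of Hox genes, which cover 22 of the 39 members, 20.8%, 8.33% and 8.33% held them. The count of CG dinucleotides was 7 in Hoxa7, 3 in Hoxa9, 7 in Hoxa10 and 13 in Hoxa11, against a median of 6 over all windows.

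In eWAT, the central genes Hoxc8, Hoxc6 and Hoxd8 had the highest median levels of the family. Levels between genes are compared per gene length, as FPKM in eWAT and RPKM in iWAT (reads scaled by gene length and depth). Hoxc8, a regulator of thoracic identity, stood at 33.0, 50.8 and 32.8 FPKM in ZT3 controls, 47.4, 58.0 and 15.9 in ZT3 shiftwork, 38.5, 36.9 and 50.5 in ZT12 controls and 43.6, 38.5 and 44.8 in ZT12 shiftwork. It was the highest member by median (41.05 FPKM) and stood above Hoxc6 in 12 of 12 libraries, with ZT3 shiftwork replicate 3 the lowest. In that library Hoxd8 (21.01 FPKM) stood above Hoxc8. Hoxc6 followed with a lowest, median and highest level of 10.8, 24.5 and 34.2 FPKM, and Hoxd8 with 6.44, 10.2 and 21.01 FPKM. Hoxc5 (median 8.69 FPKM), Hoxc4 (7.66), Hoxa5 (4.00), Hoxb5 (3.92), Hoxb4 (3.30), Hoxb6 (3.26) and Hoxb7 (3.19) completed the 10 highest members. Neighbours in this order overlapped in range, and Hoxd8 stood above Hoxc5 in 7 of 12 libraries. In all, 19 of 39 members had a median of at least 1 FPKM.

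In iWAT the same central genes led, and posterior genes of the Hoxa and Hoxc clusters stood beside them. Hoxc8 stood at 35.8, 21.9 and 46.9 RPKM in controls and 20.9, 44.2 and 21.1 RPKM in shiftwork libraries, and Hoxc6 at a lowest, median and highest level of 15.2, 17.5 and 19.5 RPKM. The third was Hoxc10, a posterior gene known as a marker of subcutaneous fat, at 15.2, 12.6 and 14.5 RPKM in controls and 27.9, 18.6 and 15.7 RPKM in shiftwork libraries. In eWAT Hoxc10 ranked 25 of the 39 members by median. Hoxc5 (median 8.38 RPKM), Hoxd8 (8.26), Hoxc9 (8.14), Hoxa7 (8.03), Hoxa10 (5.60), Hoxb4 (4.55) and Hoxb7 (4.42) completed the 10 highest members of iWAT. In all, 24 of 39 members had a median of at least 1 RPKM. This count is not on the scale of the eWAT count, whose limit was stricter. Hoxb9 and Hoxd4, at eWAT medians of 0.962 and 0.879 FPKM, lay just under that limit.

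**Figure D1:**
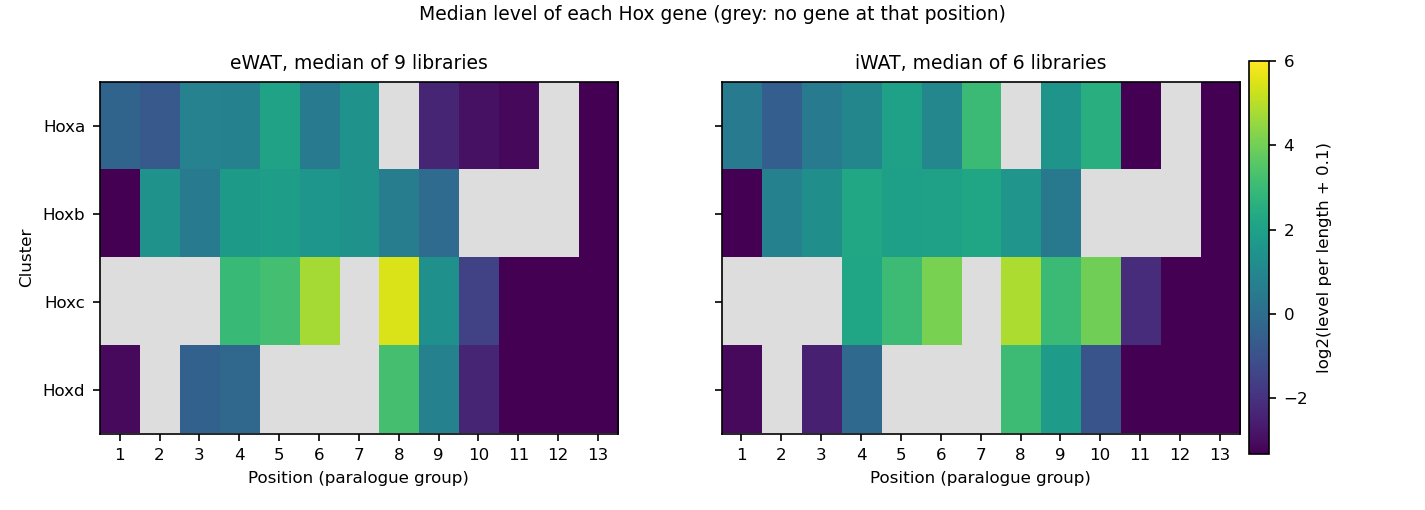
Median level per length of each Hox gene, as log2(level + 0.1) with FPKM in eWAT (9 libraries) and RPKM in iWAT (6 libraries), by cluster (rows) and position (columns); grey marks positions with no gene. Hoxc6 and Hoxc8 are the brightest fields in both depots, and Hoxa9, Hoxa10 and Hoxc10 are brighter in iWAT.

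The depots differed in how far along the Hoxa and Hoxc clusters transcripts reached. Taking a median level of at least 1 per length as the limit, the last Hoxa member above it was Hoxa7 in the 9 eWAT libraries (2.58 FPKM) and Hoxa10 in iWAT (5.60 RPKM). In the Hoxc cluster it was Hoxc9 in eWAT (2.45 FPKM) and Hoxc10 in iWAT (15.5 RPKM). The last Hoxb member above it was Hoxb8 in eWAT (1.43 FPKM) and Hoxb9 in iWAT (1.25 RPKM), but the limit is stricter in eWAT. Hoxb9 was at a median of 0.859 FPKM in the 9 eWAT libraries, and its ranges overlapped between depots. In CPM its iWAT median was 0.923 times that of all 12 eWAT libraries, so no difference in reach is shown for Hoxb. The last Hoxd member above the limit was Hoxd9 in both depots (1.59 FPKM and 3.47 RPKM). The same members were last over all 12 eWAT libraries.

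Positions 9 to 13 held a larger share of the Hox transcript pool in iWAT. This share, the summed per-length level of posterior members over that of all 39 in the same library, was 23.3%, 25.7% and 21.3% in iWAT controls and 36.4%, 24.6% and 28.6% in iWAT shiftwork libraries. In eWAT it was 19.8%, 5.43% and 18.3% in ZT3 controls, 3.22%, 3.16% and 10.3% in ZT3 shiftwork, 2.47%, 3.34% and 4.66% in ZT12 controls and 3.71%, 10.9% and 8.02% in ZT12 shiftwork. On this per-length scale every iWAT library stood above every eWAT library, and the 2 highest eWAT values were those of the libraries with vas deferens transcripts. As a share of Hox reads, with no correction for gene length, the highest eWAT library reached into the iWAT range. The mean was 26.7% ± 5.37 (SD, n = 6) in iWAT, 7.77% ± 5.98 (SD, n = 12) in eWAT and 4.99% ± 2.78 (SD, n = 9) in the 9 eWAT libraries. Central positions 4 to 8 held 60.2 to 74.1% in iWAT and 84.2 to 91.5% in the 9 eWAT libraries, and anterior positions 1 to 3 held 3.37 to 5.43% and 4.73 to 7.06%. Over all 12 eWAT libraries the central share was 71.3 to 91.5% and the anterior share 4.73 to 11.6%, both overlapping iWAT. By cluster, Hoxc held 53.7 to 61.2% of the pool in iWAT and 62.6 to 72.2% in the 9 eWAT libraries, and Hoxa 16.2 to 20.7% and 7.27 to 11.8%. Over all 12 eWAT libraries Hoxc held 26.4 to 72.2% and Hoxa 7.27 to 20.6%, both overlapping iWAT. In ZT3 control replicate 1 and ZT3 shiftwork replicate 3, Hoxb (37.2 and 33.1%) held more than Hoxc (31.8 and 26.4%). The tables were normalized separately and use different gene lengths, so depots are set side by side with no test.

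**Figure D2:**
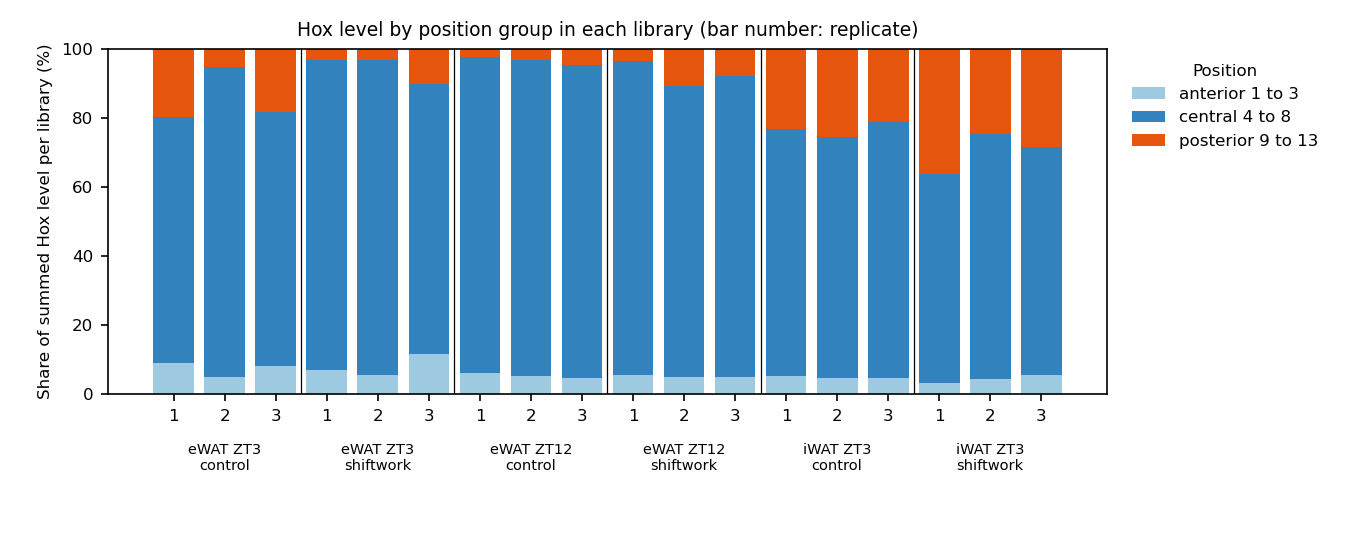
Share of the summed Hox level per length (%) held by anterior, central and posterior positions in each of 18 libraries, 1 bar per library. The posterior share is 21.3 to 36.4% in iWAT and 2.47 to 19.8% in eWAT.

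For single genes, a member was called higher in a depot when its lowest library there lay above its highest library in the other depot on each of 3 scales: per length, CPM and libraries scaled to equal medians. Of 39 members, 28 passed the filter on low values (0.5 CPM in at least 3 libraries) and 11 did not. On all 3 scales, 3 of the 28 (Hoxa7, Hoxc9 and Hoxc10) stood higher in iWAT, where 3.01% of all genes did. By the same rule 1 of the 28 (Hoxd3) stood higher in eWAT, where 2.7% of all genes did. The other 24 overlapped on at least 1 scale. Taken singly, the per-length scale gave 3 members higher in iWAT (10% of all genes) and 1 higher in eWAT (8.29%), CPM gave 4 (5.55%) and 2 (5.53%), and median scaling gave 3 (8.24%) and 1 (10.4%).

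Hoxc10 had the largest ratio between depots among the 28. It stood at 29.1, 24.0 and 27.6 CPM in iWAT controls and 53.2, 35.4 and 29.9 CPM in iWAT shiftwork libraries. In eWAT it stood at 2.14, 2.18 and 3.00 CPM in ZT3 controls, 0.0901, 0.185 and 0.587 in ZT3 shiftwork, 0.322, 0.510 and 0.952 in ZT12 controls and 0.645, 7.95 and 4.12 in ZT12 shiftwork. The iWAT median was 37.0 times the eWAT median in CPM and 47.8 times after median scaling of per-length levels. The highest eWAT library (ZT12 shiftwork replicate 2) stayed under the lowest iWAT library. In GENCODE M21, 8.70% of the exon length of Hoxc10 is shared with other genes on the same strand, with Hoxc5 the largest overlap. How reads in shared exons were counted is not stated, so they may be counted for either gene or for neither.

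Hoxc9, its neighbour, stood at 20.6, 14.8 and 21.5 CPM in iWAT controls and 19.2, 20.3 and 18.7 CPM in iWAT shiftwork libraries. In eWAT it ranged from 2.25 to 8.89 CPM with a median of 5.78 CPM. The iWAT median was 3.41 times that in CPM, and 3.06 times after median scaling of per-length levels. Hoxa7, a thoracic gene of the Hoxa cluster, stood at 24.5, 19.3 and 30.7 CPM in iWAT controls and 19.1, 28.7 and 21.5 CPM in iWAT shiftwork libraries. Its eWAT range was 5.01 to 11.1 CPM, and the iWAT median was 3.34 times the eWAT median in CPM and 2.73 times after that scaling.

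Hoxa9 and Hoxa10 were also higher in iWAT by median (12.1 and 19.0 times in CPM), but their ranges overlapped. After median scaling of per-length levels the ratios were 8.28 and 26.1. Hoxa10, known for its part in the identity of the uterus and the posterior body, stood at 15.1, 12.4 and 18.3 CPM in iWAT controls and 20.2, 30.5 and 18.3 CPM in shiftwork libraries. The 2 eWAT libraries with vas deferens transcripts reached 32.3 and 26.4 CPM, and the other 10 ranged from 0 to 6.63 CPM. Hoxa9 stood between 9.46 and 25.3 CPM in iWAT, between 0.0460 and 8.47 CPM in eWAT, and did not overlap in CPM but did per length. With the 3 eWAT libraries left out, 5 members (Hoxa7, Hoxa9, Hoxa10, Hoxc9 and Hoxc10) stood higher in iWAT per length, where 16.3% of all genes did, and 3 (Hoxc4, Hoxc6 and Hoxd3) in eWAT, where 10.3% did. With ZT3 libraries only, 3 stood higher in iWAT (13.7% of all genes) and 2 (Hoxb2 and Hoxd3) in eWAT (9.63%). With ZT3 controls only there were 4 (28.5%) and 2 (18.4%).

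Hoxd3, an anterior member, was listed at 2.72 to 18.04 CPM across the eWAT libraries, with only 0.0667 to 0.455 CPM across those of iWAT. In GENCODE M21, 62.3% of the exon length of Hoxd3 (52.3% for Hoxd4) is shared with other genes on the same strand. The largest overlap of both is with the transcript Gm28230, and reads in shared exons can be counted for neither gene. The eWAT table lists genes by symbol, and whether its annotation holds that transcript was not tested, so the depot difference of Hoxd3 cannot be told apart from a difference in counting. Hoxc4, which spanned 14.9 to 41.2 CPM in eWAT, against 8.13 to 14.6 CPM for iWAT, stood higher in eWAT in CPM but overlapped per length and after median scaling. Within a library, reads of Hoxc10 were 0.0599 to 6.56% of those of Hoxc8 in eWAT and 20.8 to 90.1% in iWAT, a ratio that needs no scaling between libraries.

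**Figure D3:**
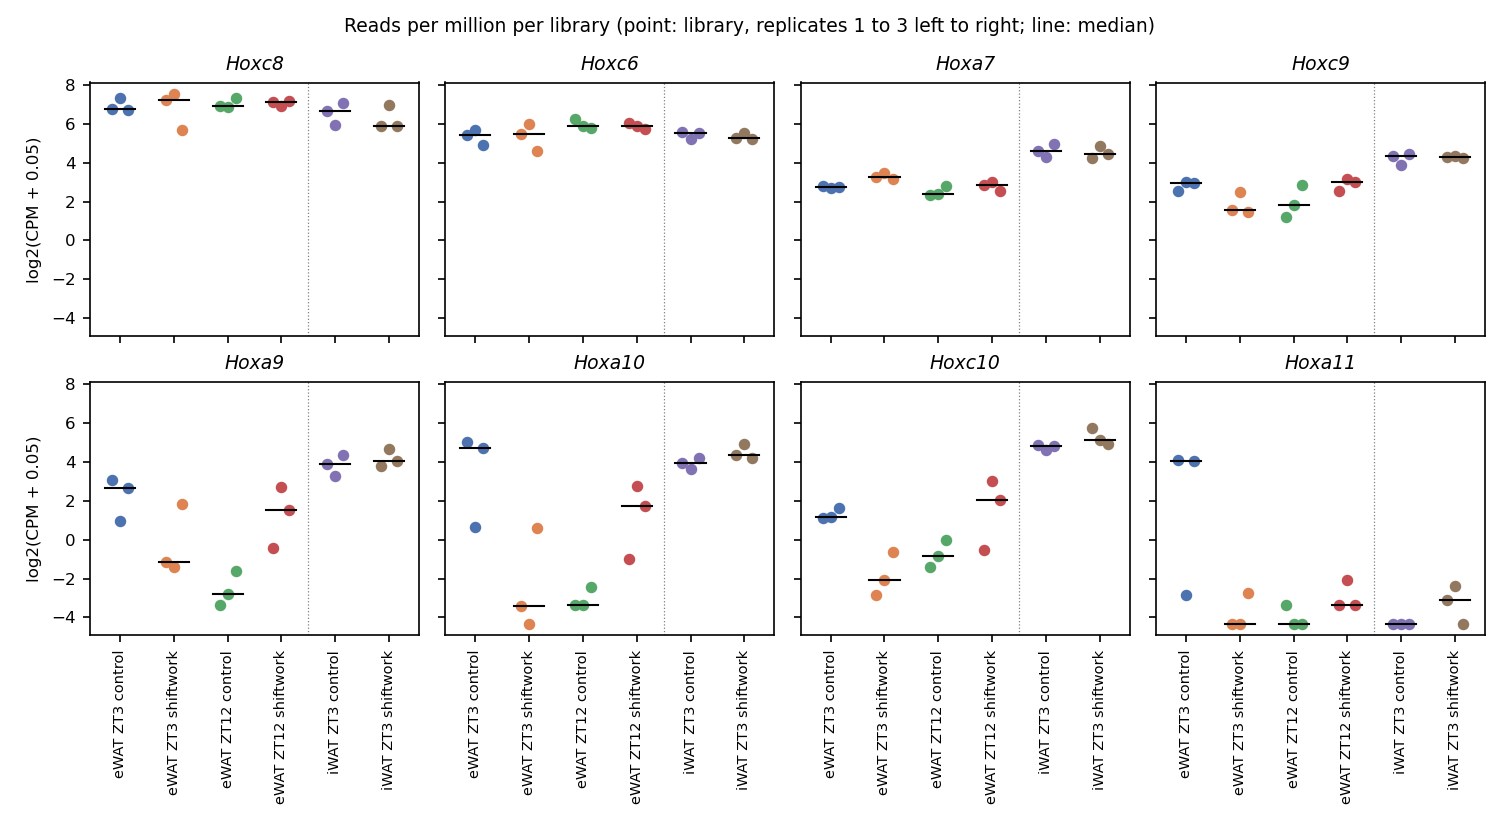
log2(CPM + 0.05) of 8 Hox genes per library, with groups on the horizontal axis, a point for each library and a line at the group median. Hoxa7, Hoxc9 and Hoxc10 lie higher in every iWAT library than in every eWAT library, and Hoxa9, Hoxa10 and Hoxc10 spread widely among eWAT libraries.

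At the ends of the clusters, Hoxb1, which patterns the hindbrain, and Hoxc12 had no reads in any of the 18 libraries. A count of 0 allows up to 3 reads, which is 0.0415 to 0.147 CPM per eWAT library and 0.0539 to 0.105 CPM per iWAT library, for counting error only. Hoxa13, Hoxb13, Hoxd11, Hoxd12 and Hoxd13 also had no reads in iWAT, which makes 7 members without reads there. Hoxb13, Hoxc13 and Hoxd1 did not exceed 0.147, 0.0491 and 0.196 CPM in any library. Hoxc11 stood at 0.126, 0.105 and 0.389 CPM in iWAT controls and 2.50, 0.105 and 1.10 CPM in iWAT shiftwork libraries, highest in the library with skeletal muscle transcripts, whose part in this was not tested. In eWAT, Hoxc11 did not exceed 0.304 CPM.

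The most posterior Hoxa and Hoxd genes were seen in eWAT mainly in the 2 libraries with vas deferens transcripts, a duct patterned by these genes. Hoxa11 reached 17.1 and 16.5 CPM in replicates 1 and 3 of the ZT3 controls, and at most 0.188 CPM in the other 10 eWAT libraries. Hoxd13 stood at 13.7 and 6.39 CPM there and at most 0.0978 CPM elsewhere, and Hoxd11 at 13.3 and 6.49 CPM and at most 0.374 CPM. Hoxa13 reached 3.38 and 0.983 CPM, and Hoxd12 1.58 and 0.393 CPM, where the other 10 held at most 0.0470 and 0 CPM. Hoxd10 stood at 11.3 and 5.80 CPM there and 0.0453 to 1.52 CPM in the others. The level of these genes in fat cells of those 2 libraries was not tested.

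The central genes Hoxb7 and Hoxb8 were high in the same libraries. Hoxb8 reached 67.5 and 39.6 CPM in replicates 1 and 3 of the ZT3 controls, 25.7 CPM in ZT3 shiftwork replicate 3 and 3.69 to 8.19 CPM in the 9 eWAT libraries. Hoxb7 stood at 28.7, 20.1 and 11.8 CPM in those 3, against 2.49 to 5.90 CPM. Hoxb4 and Hoxb5 did not follow in the ZT3 shiftwork group, where they averaged 11.6 ± 0.792 and 11.4 ± 1.18 CPM (SD, n = 3). In ZT3 controls they averaged 13.8 ± 5.70 and 13.5 ± 4.65 CPM (SD, n = 3). Their ranges in the 9 eWAT libraries were 8.09 to 13.7 and 4.56 to 12.7 CPM. Over all 12 eWAT libraries their highest values were 20.2 and 17.9 CPM, above those ranges. The library with spermatid transcripts was the highest for Hoxa4, known for its expression in male germ cells, at 24.7 CPM against 2.35 to 5.09 CPM in the other 11. Hoxb9 stood at 31.4 CPM in it, 29.9 and 12.5 CPM in the libraries with vas deferens transcripts and 2.62 to 4.61 CPM in the 9 others. Hoxc8 was lowest in the library with spermatid transcripts, at 51.2 CPM against 105 to 185 CPM in the other 11, and adipocyte markers were lowest there too (10500 CPM).

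**Figure D4:**
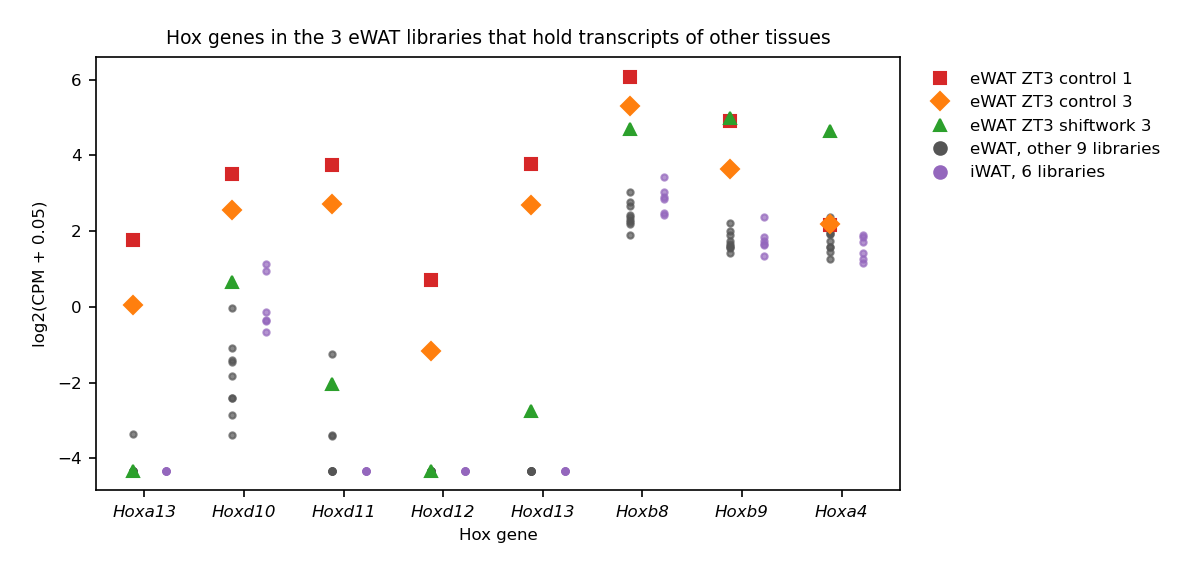
log2(CPM + 0.05) of 8 Hox genes per library, with the 3 eWAT libraries that hold transcripts of other tissues as large symbols, the 9 other eWAT libraries in grey and the 6 iWAT libraries in purple. Hoxa13, Hoxd11, Hoxd12 and Hoxd13 are at or near the bottom in all but the 2 libraries with vas deferens transcripts, and Hoxa4 is highest in the library with spermatid transcripts.

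Among the 9 eWAT libraries, the members with a median of at least 1 FPKM varied far less than Hoxa9, Hoxa10 and Hoxc10. In CPM the highest library was 1.57 times the lowest for Hoxc8, 1.69 for Hoxc6, 1.59 for Hoxa5 and, at the most, 3.95 for Hoxc9. It was 88.3 times for Hoxc10 and 141 times for Hoxa9, while Hoxa10 ranged from 0 to 6.63 CPM. The lowest values behind these 2 ratios, 0.0901 and 0.0460 CPM, are fewer than 3 reads, so the ratios are uncertain. The medians of Hoxc10 and Hoxa9 were 0.645 and 0.405 CPM. The 3 genes were high together in ZT12 shiftwork replicate 2 (Hoxa9 6.49, Hoxa10 6.63 and Hoxc10 7.95 CPM), in ZT12 shiftwork replicate 3 (2.81, 3.27 and 4.12 CPM) and in ZT3 control replicate 2 (1.87, 1.51 and 2.18 CPM). In the other 6 libraries Hoxa9 did not exceed 0.691 CPM, Hoxa10 0.461 CPM and Hoxc10 0.952 CPM.

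Markers of other cell types were measured beside these 3 genes. Tbx15 stood at 0 to 0.232 CPM in the 9 eWAT libraries, among them 0.141 and 0.187 CPM in ZT12 shiftwork replicates 2 and 3 and 0.222 CPM in ZT3 control replicate 2, so transcripts of that subcutaneous gene were near 0 there. The 7 smooth muscle markers summed to 945 and 926 CPM in ZT12 shiftwork replicates 2 and 3, to 385 CPM in ZT3 control replicate 2 and to 320 to 462 CPM in the other 6. For the intestine, 6 markers reached a sum of 164 CPM in ZT12 shiftwork replicate 2, with 8.30 to 18.3 CPM in the other 8, and 6 ParaHox and caudal genes, which mark gut, reached 2.26 CPM there and at most 0.0936 CPM in the other 8. The 10 markers of vas deferens and epididymis summed to 4.42, 3.09 and 11.5 CPM in these 3 libraries and 2.13 to 6.63 CPM in the other 6. The part of these cells in the Hox levels was not tested.

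The tests of time and schedule asked whether Hox levels were stable. In eWAT, 28 members passed the filter on low counts and were tested with edgeR's quasi-likelihood test among 15141 genes, with Benjamini-Hochberg adjustment. In controls, ZT12 against ZT3, no member was called, where 3.69% of all genes were. At an unadjusted p under 0.05 there were 11 of 28, where 22.4% of all genes were, and DESeq2 called 5 (Hoxa9, Hoxa10, Hoxb7, Hoxb8 and Hoxd10), where it called 15.3% of all genes it gave an adjusted p. The smallest p-values were those of Hoxa9, at -5.20 ± 1.16 (log2 fold change ± SE, n = 3 per group, adjusted p = 0.0507), and Hoxa10, at -7.84 ± 1.75 (adjusted p = 0.0520). Hoxa9 stood at 8.47, 1.87 and 6.34 CPM at ZT3 and 0.0460, 0.0928 and 0.272 CPM at ZT12, and Hoxa10 at 32.3, 1.51 and 26.4 CPM and 0.0460, 0.0464 and 0.136 CPM. At ZT12 these Hoxa10 values were 1, 1 and 3 reads, so the fitted fold change depends on the prior count. The groups did not overlap for either gene, and the 2 highest libraries of each were those with vas deferens transcripts.

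The count rested on single libraries. Without ZT3 control replicate 2, which leaves only the 2 libraries with vas deferens transcripts as ZT3 controls, 13 of 32 tested members were called, where 7.72% of all genes were. Without ZT3 shiftwork replicate 3 there were 7 of 32 (17.8% of all genes), and without ZT3 shiftwork replicate 2 there were 2 of 32 (2.69%). With the 3 libraries of other tissues left out, 0 were called, where 4% of all genes were, and Hoxa9 and Hoxa10 stood at -3.84 and -4.34 (edgeR, adjusted p = 0.0918 and 0.0987) with a single ZT3 control library, assumed to vary like the other groups.

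Under shiftwork, ZT12 against ZT3, edgeR called no member, where 0.0% of all genes were called. Without adjustment, at a p under 0.05, there were 5, where 16.3% of all genes were, and DESeq2 called 2 (Hoxa4 and Hoxc10), where it called 2.16% of all genes. Hoxc10 stood at 3.94 ± 0.86 and Hoxa4 at -1.89 ± 0.54 (log2 fold change ± SE, edgeR adjusted p = 0.280 for both). Hoxa4 stood at 3.92, 5.09 and 24.7 CPM at ZT3 and 3.32, 2.35 and 2.95 CPM at ZT12, with the highest value in the library with spermatid transcripts. Without the 3 libraries of other tissues its value was -0.75 (edgeR, adjusted p = 0.134).

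Averaged over both schedules, edgeR called no member for time, where 4.94% of all genes were called. At an unadjusted p under 0.05 there were 12, where 25.5% of all genes were, and DESeq2 called 8 (Hoxa4, Hoxb2, Hoxb3, Hoxb6, Hoxb7, Hoxb8, Hoxb9 and Hoxd10), where it called 15.9% of all genes. Hoxb8 differed by -2.0 ± 0.53 and Hoxb2 by -0.99 ± 0.28 (log2 fold change ± SE, edgeR adjusted p = 0.0648 and 0.0732). Without the 3 libraries of other tissues, Hoxb8 stood at -0.11 and Hoxb2 at -0.48 (edgeR, adjusted p = 0.710 and 0.281). Without ZT3 control replicate 2 there were 8 calls among 32 members (7.58% of all genes), and without ZT3 shiftwork replicate 3 there was 1, Hoxa4 (10.8%). Hoxc8 differed by 0.07, with a 95% interval from -0.61 to 0.75.

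For shiftwork against control at ZT3 in eWAT, edgeR called no member and 0.0% of all genes. Without adjustment, at a p under 0.05, there were 7, where 18.8% of all genes were, and DESeq2 called 3 (Hoxa3, Hoxa10 and Hoxc10), where it called 4.62% of all genes. Hoxa3, an anterior gene needed in the pharyngeal region, stood at 6.49, 4.13 and 4.03 CPM in controls and 7.56, 7.60 and 12.0 CPM in shiftwork libraries (0.89 ± 0.21, edgeR adjusted p = 0.194). Hoxc10 stood lower in every shiftwork library (-3.13 ± 0.86, edgeR adjusted p = 0.207). In CPM, Hoxa3, Hoxa5, Hoxa6 and Hoxa7, 4 of 28 members, stood above controls without overlap, where 5.34% of all genes did. Below controls were 3 of 28 (Hoxa10, Hoxc9 and Hoxc10), where 5.44% of all genes were. Without ZT3 control replicate 2, edgeR called 2 of 32 members (Hoxa11 and Hoxd13), where 2.57% of all genes were called, both near 0 outside the libraries with vas deferens transcripts.

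At ZT12, edgeR and DESeq2 called no member for shiftwork against control, and edgeR called 0.0% and DESeq2 0.0493% of all genes. At an unadjusted p under 0.05 there were 3 (Hoxa9, Hoxa10 and Hoxc10), where 2.34% of all genes were. Hoxa9 stood at 0.0460, 0.0928 and 0.272 CPM in controls and 0.691, 6.49 and 2.81 CPM in shiftwork libraries (4.52 ± 1.16, edgeR adjusted p = 1). Hoxc10 stood at 2.79 ± 0.82 (edgeR adjusted p = 1) and overlapped, since shiftwork replicate 1 (0.645 CPM) lay under control replicate 3 (0.952 CPM). In CPM, 2 of 26 members (Hoxa3 and Hoxa9) stood above controls without overlap, where 8.2% of all genes did, and 1 (Hoxb4) stood below, where 4.29% did. Smooth muscle markers were high in the same 2 shiftwork libraries as Hoxa9, as given above.

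Averaged over both times, edgeR and DESeq2 called no member for schedule, and edgeR called 0.0% and DESeq2 0.296% of all genes. Without adjustment, at a p under 0.05, there were 3 (Hoxa2, Hoxa3 and Hoxa7), where 8.57% of all genes were. Hoxa3 differed by 0.49 ± 0.15 and Hoxa7 by 0.41 ± 0.15 (log2 fold change ± SE, edgeR adjusted p = 0.574 for both). Hoxa3 stood higher in each shiftwork library than in any control of the same time, with 5.20, 5.01 and 5.57 CPM in controls and 6.08, 5.69 and 5.71 CPM in shiftwork at ZT12. For the interaction of schedule and time, edgeR called no member and 0.0% of all genes, and DESeq2 called 3 (Hoxa9, Hoxa10 and Hoxc10), where it called 1.32% of all genes. At an unadjusted p under 0.05 there were 6, where 10.1% of all genes were. Hoxc10 stood at 5.92 ± 1.19 and Hoxa10 at 10.75 ± 2.26 (log2 scale, edgeR adjusted p = 0.372 for both). Without ZT3 control replicate 2, 1 of 32 members (Hoxa11) was called for the interaction, where 1.19% of all genes were.

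In iWAT, 29 members passed the filter and were tested with limma on log2(value + 1) among 16387 genes. No member was called for shiftwork against control, and 0.0% of all genes were. Without adjustment, at a p under 0.05, there were 2, Hoxd8 and Hoxa10, where 6.68% of all genes were, and edgeR on the recovered reads called 0, as it did of all genes. Hoxd8 stood at 22.4, 17.3 and 16.9 CPM in controls and 28.7, 24.4 and 22.9 CPM in shiftwork libraries (0.58 ± 0.19, limma adjusted p = 0.688). Hoxa10 differed by 0.72 ± 0.28 (limma adjusted p = 0.688). In CPM, 2 of 27 members (Hoxc10 and Hoxd8) stood above controls without overlap, where 4.31% of all genes did, and 0 stood below, where 5.5% did. Hoxc10 differed by 0.66 ± 0.28 on the log2 scale, and by 0.37 without shiftwork replicate 1, the library with skeletal muscle transcripts. In the authors' deposited table, no Hox gene had an adjusted p under 0.05, where 426 of the 51826 identifiers did.

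As a set, the tested members leaned below 0 for time in eWAT. In controls 7 of 28 stood above 0 and 21 below, with a median of -0.38 on the log2 scale against -0.01 over all genes, and for mean time the split was also 7 and 21 (median -0.40 against -0.04). For schedule, 10 stood above and 18 below at ZT3 (median -0.25 against 0.06), 13 and 15 at ZT12 (-0.02 against 0.00), and 14 and 15 of 29 in iWAT (-0.01 against 0.02). The ZT3 groups hold the 3 libraries with transcripts of other tissues, in which several Hoxb and posterior members were high as given above. The part of these libraries in the medians was not tested.

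**Figure D5:**
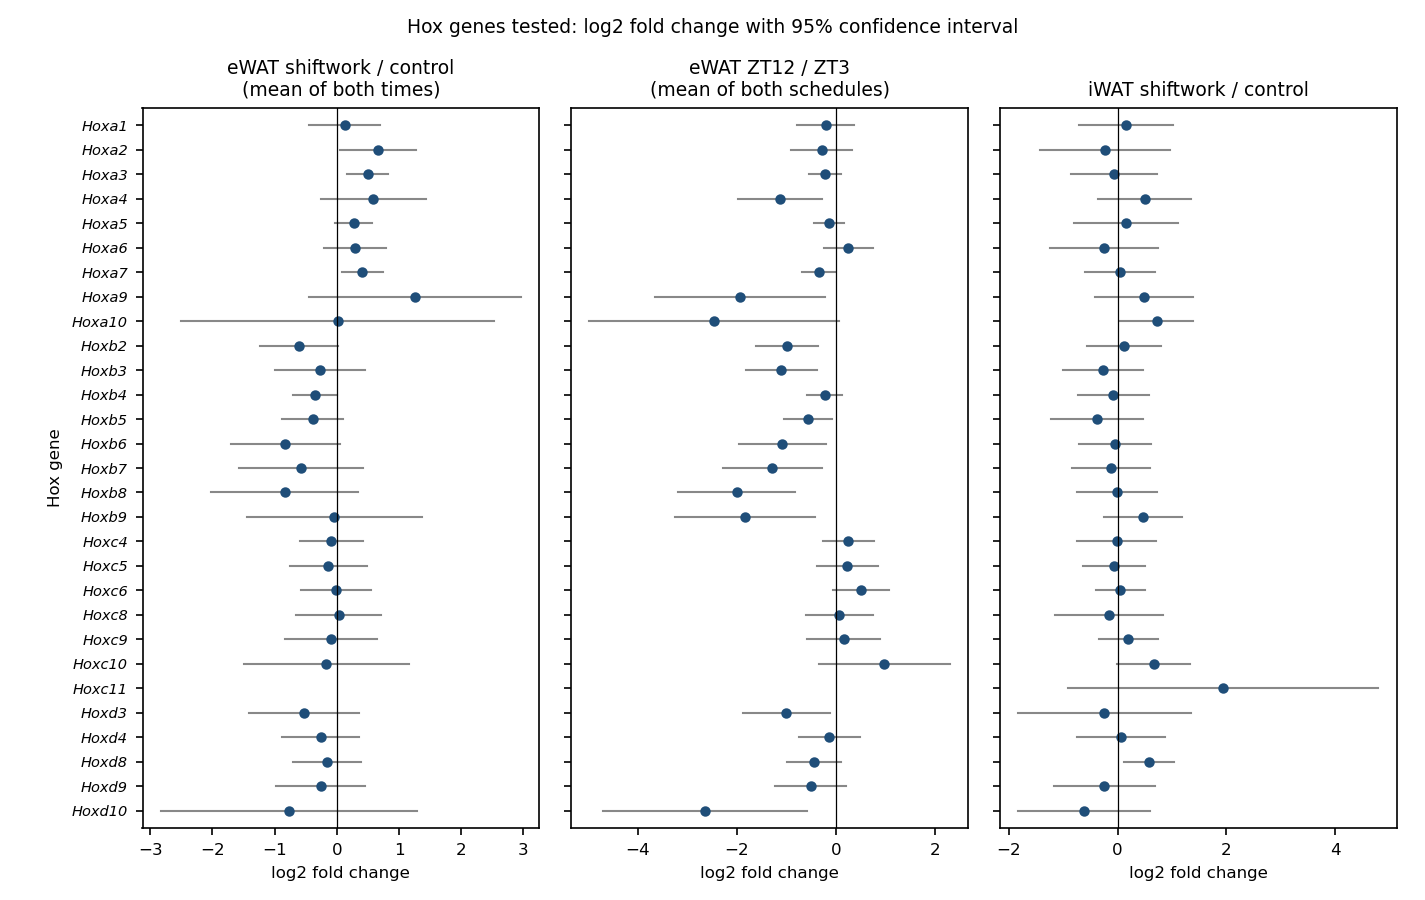
log2 fold change of each tested Hox gene with its 95% confidence interval, for schedule and time in eWAT (edgeR, 28 genes, 12 libraries) and for schedule in iWAT (limma, 29 genes, 6 libraries); horizontal scales differ between panels. Most intervals span 0, the intervals of Hoxa9, Hoxa10 and Hoxd10 are wide in eWAT, and no gene passed the test over all genes.

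Genes that act on or with the Hox clusters were counted from lists. Of 9 Hox cofactors (Pbx, Meis and Pknox), all 9 were tested in each comparison and 0 were called, with medians between -0.17 and 0.12 on the log2 scale. Over all genes, 3.69% were called for time in controls, 4.94% for mean time and 0.0% in the other comparisons. This holds for the lists below too, and where 0.0% of all genes were called, 0 calls cannot set a list apart. The smallest p-value in controls over time was that of Meis2 (-1.25 ± 0.35, edgeR adjusted p = 0.0761), which stood at 76.9, 21.1 and 49.5 CPM at ZT3 and 18.4, 20.3 and 19.4 CPM at ZT12, high in the 2 libraries with vas deferens transcripts. Meis1 stood at 19.9 to 59.1 CPM in eWAT, and iWAT libraries held 7.47 to 11.9 CPM.

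Of 24 Polycomb genes, 1 passed for mean time, where 4.94% of all genes did. Rnf2, the E3 ligase subunit that marks histone H2A, fell by 0.46 ± 0.11 from ZT3 to ZT12 (log2 scale, edgeR adjusted p = 0.0480). The 3 libraries with transcripts of other tissues held its highest values, 58.5, 57.9 and 58.8 CPM against 32.1 to 48.9 CPM in the other 9. No Polycomb gene was called in the other 7 comparisons, and none of 13 Trithorax and demethylase genes or 14 tested genes of the retinoic acid pathway was called in any of the 8. Of 7 tested neighbours of the clusters, 1 passed for mean time, where the same 4.94% applies. Hnrnpa1, an RNA-binding protein gene next to Hoxc, fell by 0.40 ± 0.09 for the same contrast (edgeR adjusted p = 0.0342). It was also highest in those 3 libraries, at 38.3, 38.3 and 33.2 CPM against 21.7 to 29.7 CPM, and the part of these tissues in both calls was not tested. Of the 18 noncoding and antisense transcripts listed, 4 were tested in eWAT and 5 in iWAT with 0 calls. Hotairm1, at the anterior end of Hoxa, spanned 1.93 to 3.68 CPM across eWAT libraries, with 2.0 to 3.86 CPM for iWAT. Hotair, transcribed from the Hoxc cluster, did not exceed 0.498 CPM in any library. Hoxa11os, antisense to Hoxa11, stood at 21.02 and 7.81 CPM in the 2 libraries with vas deferens transcripts and at most 0.329 CPM in the other 16, and its reads cannot be told apart from those of Hoxa11 without strand.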

How the data were processed

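Per the labels, RNA was sequenced from eWAT and iWAT. The eWAT table, as deposited, gives gene counts and log2 FPKM values; the iWAT tables give a normalized signal (whole reads divided by a size factor), RPKM, and the authors' log2 fold changes and p-values. HTSeq and STAR, with DESeq2, edgeR and limma and the builds mm10 and GRCm38, are listed without roles per the submitters' processing notes; strand is not given in the sources used here. eWAT counts were tested with edgeR 4.0.16 (TMM, filterByExpr with a minimum count of 10 and total of 15, 4 groups fitted together); DESeq2 1.42.0 was an alternative. iWAT values were tested with limma 3.58.1 (trend, robust) on log2(value + 1), for values above 10 in at least 3 libraries; all 310956 values came out as whole reads (100%, tolerance 1e-06), which edgeR tested as an alternative. A call is an adjusted p under 0.05 over all genes; adjusted p-values are from these tools. The scripts (R 4.3.3, Python 3.11.15) were tested on simulated data. Levels across depots are not tested. All 39 members are accounted for; the rule named the 10 highest per depot, undetected members, those not overlapping between depots and, per test, those called or else the 2 with the smallest p. Other members were named after their values were seen. Members and lists were chosen with earlier results of these data known, and no list supports a result.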

Additional observations from a re-analysis of the deposited data

Results flagged for a closer look

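Hoxc10 stood in opposite directions in the 2 depots at ZT3. In eWAT its log2 fold change for shiftwork against control was -3.13, with every shiftwork library below every control. In iWAT it was 0.66, with every shiftwork library above every control. Neither value passed the adjusted threshold, and the difference between the depots was not tested. At ZT12 the eWAT means were 0.595 CPM in controls and 4.24 CPM under shiftwork, the same direction as in iWAT. The eWAT libraries with vas deferens transcripts are ZT3 control replicates 1 and 3, and replicate 2 stood between them for Hoxc10, as given above. The part of that tissue was not tested. At ZT3 the eWAT means were 2.44 CPM in controls and only 0.287 CPM under shiftwork. The iWAT value was smaller without the library with skeletal muscle transcripts, as given above.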

How the results depend on the processing

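DESeq2 in place of edgeR called 5 Hox genes for time in controls, 2 for time under shiftwork, 8 for mean time, 3 for schedule at ZT3 and 3 for the interaction, where it called 15.3%, 2.16%, 15.9%, 4.62% and 1.32% of all genes. Leaving out 1 library at a time gave 0 to 13 calls for time in controls, 0 to 8 for mean time, 0 to 2 for schedule at ZT3, 0 to 1 for the interaction and 0 in the other 4 comparisons, and calls over all genes moved with them (1 to 2744 for time in controls). Among those 4, 360 of 16092 genes were called in iWAT without control replicate 3. For mean schedule, 88 of 15653 genes were called without ZT3 control replicate 2. All other such runs of the 4 called no gene. The cause was not tested. Per length, members higher in iWAT were 5 without the 3 libraries of other tissues (16.3% of all genes). Members higher in eWAT were 2 in CPM (5.53% of all genes), 2 with ZT3 libraries only (9.63%), 2 with ZT3 controls only (18.4%) and 3 without those 3 libraries (10.3%). The median posterior share of iWAT was 31.7% without Hoxc8, which takes a central gene out of the total. Among shares recomputed other than by leaving out 1 library, 12 medians moved by at least 1 SD and 23 did not. None of the genes recomputed, those with the smallest p in each comparison and Hoxa9, Hoxa10, Hoxc10 and Hoxd8 where their unadjusted p was under 0.05 (Hoxc10 also in iWAT), changed direction in any setting run. Replicates of different groups were treated as sharing only a number: same-numbered deviations correlated at -0.436 to 0.307 in eWAT and -0.168 to 0.0285 in iWAT. With the replicate block 0 Hox genes were called in all 8 comparisons. In these fits, 298 of 15141 genes were called for time in controls, 462 for mean time and none in the other comparisons. Depth limits members near 3 reads, and 3 libraries per group limit the precision of each fold change.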
